A study of Homo sapiens with 6 samples.

Results

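The genes described here build the centromere and kinetochore, run the spindle checkpoint and drive entry into and exit from mitosis. They were measured in HCT116, an established line from a human colorectal carcinoma. They were chosen by symbol from a list of 54 genes, kinesins left out apart from CENPE. Of these, 53 were found among the 16715 distinct identifiers of the deposited table, and BUB1B was not analysed here. RNA-seq compared 3 libraries from cells treated with 5aza, at 5 µM for 48 hours and then kept for 48 hours in fresh medium, with 3 libraries labelled control, of the same line. For the control libraries no treatment time or time in fresh medium is listed, so a matched time in culture cannot be assumed. The compound named 5aza belongs to the azanucleosides, which trap DNA methyltransferases once built into DNA. Nothing in the labels says whether the 3 libraries of a group came from separate cultures, so p-values measure the spread between these libraries, which may be technical.

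A kinetochore is built in layers on chromatin that carries the histone variant CENP-A. The constitutive centromere-associated network (CCAN) binds that chromatin, the NDC80 complex and KNL1 on its outer face hold microtubules, and the checkpoint kinases and MAD2 delay anaphase until every chromosome is attached. Cyclin B with CDK1, and the Aurora and Polo kinases, drive the cell into mitosis, and the anaphase-promoting complex (APC/C) with CDC20 ends it by degrading securin and cyclins. Transcripts of these genes are made mainly in late S, G2 and M phases, and many of their promoters carry an element called CHR (cell cycle genes homology region), bound by the MuvB core of the DREAM and MYBL2-FOXM1 complexes, together with CCAAT boxes, bound by NF-Y.

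Promoter windows show what these genes share in sequence. RefSeq windows on GRCh38.p14, from 250 bases before to 50 bases after the transcription start, were at hand as a single window for 36 of the 53 genes. CENPH, CENPL, CENPM, KNL1, BUB3, TTK, BIRC5, AURKA, TPX2 and UBE2C had none, and ECT2, CDC25C, PTTG1, CENPP, CDK1, AURKB and CDC25B had several and were left out. The sequences printed here run from 150 bases before to 20 bases after the start, 5′ to 3′ on the gene's strand. They are those of SPC25, which had the largest decrease, of 5 others that fell, of MKI67, which did not pass the test and whose window holds CHR and CCAAT matches, and of CENPT, which had the smallest change and whose window holds none. The 5 others were picked by no set rule, and like SPC25 they all hold CHR and CCAAT matches. Of the 9 genes whose windows had no CHR match 7 fell too, among them CENPE, so the printed windows do not represent all genes that fell. Capitals mark matches, on either strand, to CHR (spelled TTTGAA, with TTCGAA also taken), to CCAAT, and to an E2F-like motif (spelled TTCCCGC, with TTGGCGC also taken, then TTCGCGC as well, and finally TTGCCGC).
SPC25 (chr2:168890411-168890580, minus strand): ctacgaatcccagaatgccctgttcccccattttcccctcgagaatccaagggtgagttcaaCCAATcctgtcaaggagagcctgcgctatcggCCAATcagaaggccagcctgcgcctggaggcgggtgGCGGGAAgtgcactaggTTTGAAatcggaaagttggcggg
CDCA3 (chr12:6851267-6851436, minus strand): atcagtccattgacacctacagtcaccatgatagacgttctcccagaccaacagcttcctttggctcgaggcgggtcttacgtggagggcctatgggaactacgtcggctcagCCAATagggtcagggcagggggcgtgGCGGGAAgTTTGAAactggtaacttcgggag
INCENP (chr11:62123861-62124030, plus strand): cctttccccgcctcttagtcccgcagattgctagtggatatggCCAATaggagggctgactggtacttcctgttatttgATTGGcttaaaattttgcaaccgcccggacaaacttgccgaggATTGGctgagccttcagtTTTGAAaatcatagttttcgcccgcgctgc
CDC20 (chr1:43358831-43359000, plus strand): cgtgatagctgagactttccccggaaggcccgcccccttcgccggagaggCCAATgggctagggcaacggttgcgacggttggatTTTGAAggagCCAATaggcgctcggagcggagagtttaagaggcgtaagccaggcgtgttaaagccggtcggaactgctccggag
PLK1 (chr16:23678739-23678908, plus strand): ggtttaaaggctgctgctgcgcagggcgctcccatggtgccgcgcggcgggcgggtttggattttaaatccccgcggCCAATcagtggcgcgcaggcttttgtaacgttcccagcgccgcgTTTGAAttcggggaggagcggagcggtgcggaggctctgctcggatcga
CCNB2 (chr15:59104996-59105165, plus strand): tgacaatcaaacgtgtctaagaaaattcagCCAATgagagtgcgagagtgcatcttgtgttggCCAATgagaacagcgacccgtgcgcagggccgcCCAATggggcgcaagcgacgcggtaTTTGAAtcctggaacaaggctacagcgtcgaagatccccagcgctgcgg
MKI67 (chr10:128126404-128126573, minus strand): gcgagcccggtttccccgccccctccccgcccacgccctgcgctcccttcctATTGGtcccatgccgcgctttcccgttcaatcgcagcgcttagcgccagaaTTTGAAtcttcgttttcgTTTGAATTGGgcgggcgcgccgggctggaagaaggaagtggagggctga
CENPT (chr16:67847674-67847843, minus strand): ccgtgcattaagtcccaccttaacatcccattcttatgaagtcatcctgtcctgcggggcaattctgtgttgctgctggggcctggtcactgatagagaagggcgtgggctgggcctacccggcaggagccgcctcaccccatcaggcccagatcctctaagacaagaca

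A CHR match was in 27 of the 36 windows (75.0%), against 10.4% of 6632 windows of all genes tested and 16.4% of all 35093 windows of the RefSeq table. CCAAT was in 28 of the 36 windows (77.8%), against 37.8% of windows of genes tested and 34.6% of all windows, and the E2F-like motif in 13 of the 36 (36.1%), against 21.7% of windows of genes tested and 13.0% of all windows. In 24 windows (66.7%) a CHR match began within 50 bases of the start, as in CDCA3 and PLK1 above, against 3.09% of windows of all genes tested. SPC24, CENPK, CENPQ, CENPE, CCNA2, CENPU, NEK2, CCNB1 and CENPT had no match to these CHR letters. CENPE and CENPT had a match to none of the 3 motifs. In 2 places matches to different motifs overlapped, as the CHR and CCAAT matches of MKI67 do. A match describes these letters only, and was not tested as a binding site. The CpG content of the 36 windows (median observed over expected ratio 0.904) lay near that of windows of all genes tested (0.860), and CENPT had the lowest ratio of the 36 (0.304).

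**Figure D1:**
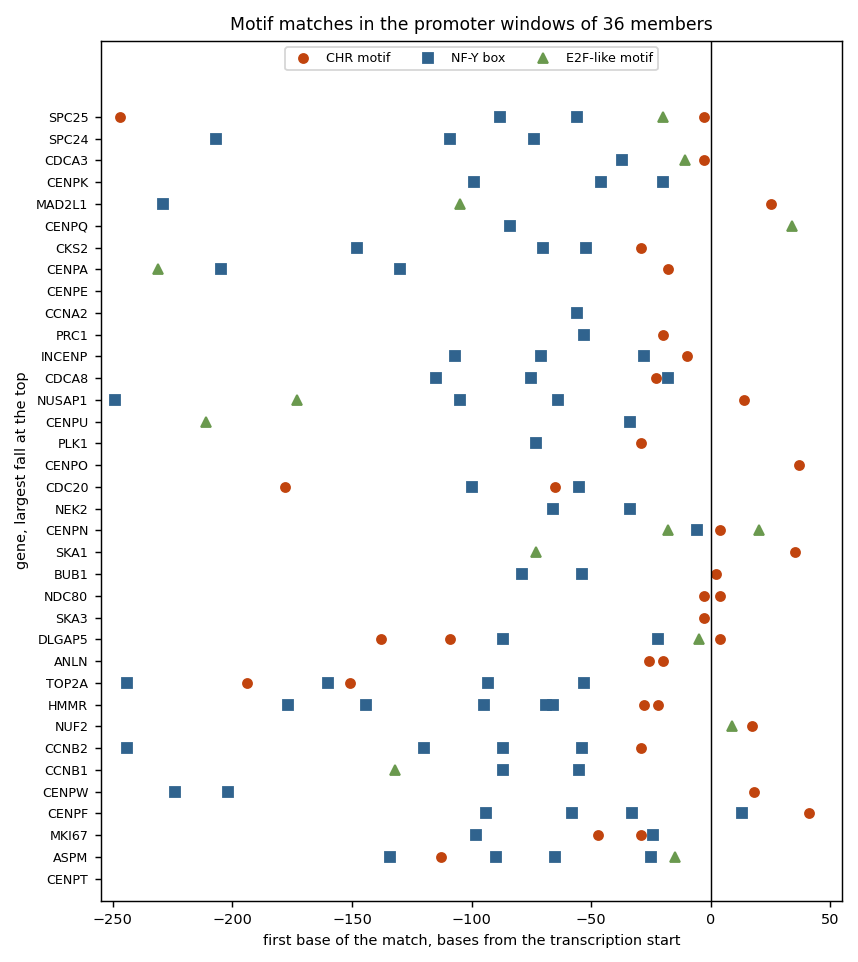
Position of each match to the CHR motif, the CCAAT box (labelled NF-Y box) and the E2F-like motif in the promoter windows of 36 genes, in bases from the transcription start (x axis). Genes run down the page from the largest decrease (y axis). CHR matches lie within 50 bases of the start in 24 windows, and most CCAAT matches lie upstream of it.

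The level of these transcripts was lower in 5aza libraries across nearly the whole list. In 45 of the 53 genes the level fell, in 0 it rose, and 8 missed the threshold. Of all 12360 genes tested, 13.1% fell and 10.6% rose (23.7% in either direction). A gene is said to have fallen or risen when its adjusted p was under 0.05 (limma on log2 of FPKM + 0.1, Benjamini-Hochberg adjustment over all genes tested). FPKM counts fragments relative to transcript length and to the mapped fragments of the library. All 53 genes had a negative log2 fold change, from -0.49 for SPC25 to -0.03 for CENPT, with a median of -0.28, against a median of -0.01 over all genes tested. The CENPT value turned to 0.04 when each library was scaled to the same summed FPKM. In 47 genes (88.7%) all 3 5aza libraries lay below all 3 control libraries, as they did in 22.6% of all genes tested (42.2% had groups apart in either direction). The summed FPKM of the 53 genes was 2628, 2578 and 2516 in 5aza replicates 1 to 3, against 3155, 3191 and 3058 in control replicates 1 to 3. RNA of whole cultures was measured, so fewer cells in G2 and mitosis and less RNA per such cell cannot be told apart.

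Scaling changed the size of these falls. Summed FPKM over all genes was lower in 5aza libraries (577735 to 592051) than in control libraries (601916 to 628399), and scaling all libraries to the same sum left 38 falls and a median of -0.20, with the median of all genes at 0.07. Over all genes that scaling gave 779 falls and 2249 rises, against 1619 falls and 1310 rises as deposited. Without 5aza replicate 3, 37 genes fell, the lowest count of any alternative. Falls were also commoner among abundant genes of the whole table: of 926 genes at a mean of 100 FPKM or more, 40.5% fell, between 30 and 100 FPKM 26.2%, between 10 and 30 FPKM 12.9%, and under 10 FPKM 2.93%. Among the members, 8 of 8 genes at 100 FPKM or more fell, 18 of 20 between 30 and 100 FPKM, 17 of 21 between 10 and 30 FPKM, and 2 of 4 under 10 FPKM. Their medians in the same order were -0.30, -0.27, -0.30 and -0.20. Over all genes tested of those levels the medians were -0.10, -0.06, -0.01 and 0.06.

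**Figure D2:**
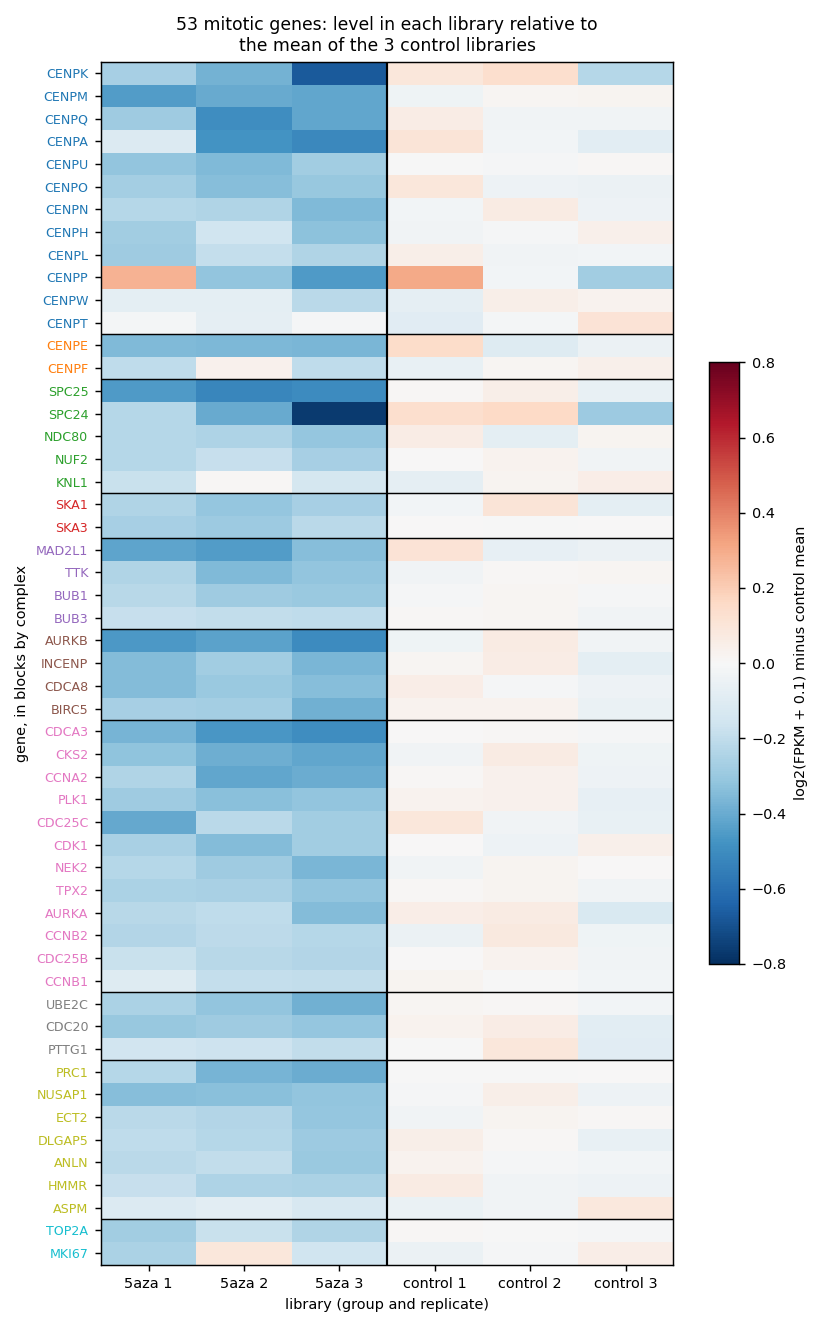
Level of each of 53 genes (rows, in blocks by complex) in 3 5aza and 3 control libraries (columns), as log2(FPKM + 0.1) minus the mean of the 3 control libraries. In 5aza replicates 1 to 3, 52, 50 and 53 of the genes lie below the control mean, the exceptions being CENPP in replicate 1 and MKI67, CENPF and KNL1 in replicate 2.

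Genes of the centromere and CCAN fell in 9 of 12 cases, with a median log2 fold change of -0.29. CENPA, the histone H3 variant that marks the centromere (ENSG00000115163, chromosome 2, 26764289 to 26801067), had 22.5, 17.4 and 16.9 FPKM in 5aza replicates 1 to 3, against 26.1, 23.9 and 22.9 FPKM in control replicates 1 to 3. The groups did not overlap, but 5aza replicate 1 came close to the lowest control library, and the adjusted p was 0.0434. The call of CENPA was lost in 10 of 17 alternatives, among them each omission of a library except that of 5aza replicate 1 (adjusted p between 0.0593 and 0.129). CENPM, a CCAN subunit built like a small GTPase, fell more evenly, with 29.2, 30.1 and 29.8 FPKM in 5aza libraries, against 38.9, 40.2 and 40.4 FPKM in control libraries (log2 fold change -0.42, SE 0.034, adjusted p = 2.74e-04). It was 25.5% lower in 5aza libraries by the ratio of means.

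Of the partners in the CCAN, CENPQ and CENPU, which bind each other in 1 subcomplex with CENPO and CENPP, fell by 0.40 and 0.31 on the log2 scale. CENPO fell to 9.09 ± 0.208 FPKM in 5aza libraries, against 11.3 ± 0.624 FPKM in control libraries (SD, n = 3 each). CENPP, the member of lowest mean FPKM, had 3.75, 2.45 and 2.22 FPKM in 5aza libraries and 3.82, 3.03 and 2.52 FPKM in control libraries. The CENPP groups overlap widely and its change did not pass (adjusted p = 0.628). Its exons share 38.0% of their bases with exons of IPPK on the other strand, and the sources used here do not say whether counting used strand. Exons of CENPO likewise share 27.0% of their bases with exons of ADCY3 on the other strand. In all, 8 members share 10% or more of their exon bases with 1 other gene. CENPH and CENPK, neighbours in another subcomplex, fell by 0.26 and 0.44, and CENPK was low in replicate 3 of both groups (7.19 FPKM in 5aza and 9.81 FPKM in control). The CENPK call was lost without 5aza replicate 2 (adjusted p = 0.0852), 5aza replicate 3 (0.115), control replicate 1 (0.120) or control replicate 2 (0.130), and in 3 other alternatives. CENPN and CENPL, which read the CENP-A nucleosome as a pair, fell by 0.27 and 0.24. The CENPL call was lost when libraries were scaled to the same sum (adjusted p = 0.104) and without 4 of the 6 libraries in turn, 5aza replicates 1 and 3 and control replicates 1 and 2 (adjusted p between 0.0543 and 0.0760). The CENPH call was lost with equal sums (adjusted p = 0.0677) and without 5aza replicate 3 (0.0511).

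The histone-fold pair CENPT and CENPW, the arm of the CCAN that recruits NDC80 directly, did not pass. CENPT (ENSG00000102901, chromosome 16, 67828157 to 67847811) had 11.1, 10.7 and 11.2 FPKM in 5aza libraries, against 10.6, 11.1 and 12.1 FPKM in control libraries, so that the groups overlap fully (log2 fold change -0.03, SE 0.062, adjusted p = 0.727). Exons of CENPT share 10.8% of their bases with exons of TSNAXIP1 on the other strand. CENPW had 29.9, 29.8 and 27.2 FPKM in 5aza libraries and 29.99, 32.5 and 32.1 FPKM in control libraries (log2 fold change -0.12, adjusted p = 0.127). The CENPW groups do not overlap, but only by a margin far smaller than the spread within each group. With the trend on transcript length removed, CENPW passed, at a log2 fold change of -0.27 (adjusted p = 0.00997). Its longest protein-coding transcript has only 750 bases, and genes under 2000 bases had a median of -0.07 before the removal. Whether length bears on the level of CENPW was not tested. A p that misses the threshold does not show that either level stayed the same.

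**Figure D3:**
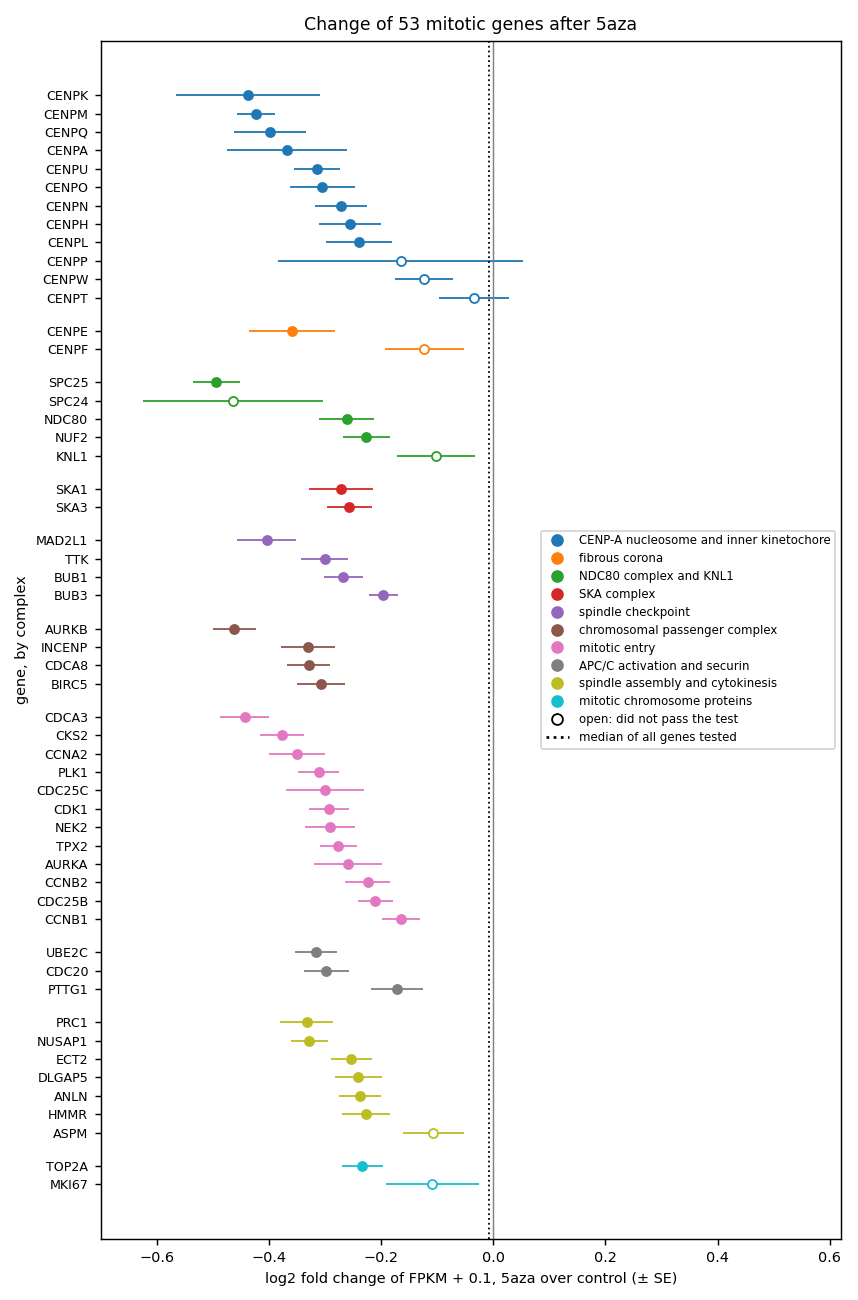
Log2 fold change of 5aza over control with its SE (x axis) for 53 genes in blocks by complex (y axis), where filled points fell and open points did not pass the test. All points lie left of the dotted median of all genes tested, at -0.01, and open points include CENPT, CENPW, CENPF, KNL1, ASPM and MKI67.

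The outer kinetochore was uneven. SPC25, a globular-end subunit of the NDC80 complex (ENSG00000152253, chromosome 2, 168834132 to 168913371), had the largest decrease of the 53 genes, with 23.4, 22.3 and 22.6 FPKM in 5aza libraries, against 32.3, 33.2 and 30.8 FPKM in control libraries. The groups stand well apart (29.1% lower in 5aza, log2 fold change -0.49, SE 0.042, adjusted p = 3.39e-04). Its partner SPC24 had a fold change of similar size (-0.46) but a much larger spread, with 16.2, 14.3 and 11.1 FPKM in 5aza libraries and 20.8, 21.2 and 15.5 FPKM in control libraries. Replicate 3 was the lowest in both groups, the groups overlap, and SPC24 did not pass (adjusted p = 0.0744). It passed without control replicate 3 (adjusted p = 0.0282), with the replicate number as a block (0.00474) and with the length trend removed (0.0476). The ratio of SPC24 to SPC25 was 0.603 in 5aza libraries and 0.591 in control libraries (geometric means, exact permutation p = 0.9, two-sided). NDC80 and NUF2, the subunits that bind the microtubule, fell by 0.26 and 0.23 and stood at a ratio of 1.26 in 5aza libraries and 1.29 in control libraries (exact permutation p = 0.6). SKA1 and SKA3, of the complex that follows the shrinking microtubule end, fell by 0.27 and 0.26.

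KNL1, the scaffold for BUB1 and BUB3 at the kinetochore, had 7.60, 8.64 and 7.80 FPKM in 5aza libraries, against 8.18, 8.72 and 8.90 FPKM in control libraries, and did not pass (log2 fold change -0.10, adjusted p = 0.328). In the fibrous corona, which forms around kinetochores without attached microtubules, CENPE, a plus-end kinesin, fell to 6.14, 6.09 and 6.08 FPKM in 5aza libraries, against 8.72, 7.32 and 7.61 FPKM in control libraries (adjusted p = 0.0144). CENPF, a microtubule-binding corona protein, had 19.6, 23.1 and 19.7 FPKM in 5aza libraries and 21.7, 22.9 and 23.3 FPKM in control libraries and did not pass (adjusted p = 0.246). 5aza replicate 2 lies among the control libraries, and without it CENPF passed (adjusted p = 0.0420). The CENPE to CENPF ratio was 0.294 in 5aza libraries and 0.348 in control libraries, with no overlap between groups (exact permutation p = 0.1, the smallest that 3 against 3 libraries can give, and 0.75 adjusted over 15 pairs).

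All 4 checkpoint genes with values fell. MAD2L1, the MAD2 protein that inhibits CDC20 (ENSG00000164109, chromosome 4, 120055608 to 120067074), had 68.6, 67.5 and 72.5 FPKM in 5aza libraries, against 99.2, 88.0 and 89.2 FPKM in control libraries (24.5% lower, log2 fold change -0.40, SE 0.052, adjusted p = 0.00195). The lowest control library exceeded the highest 5aza library by more than the spread within 5aza. TTK, the MPS1 kinase that starts the checkpoint signal, fell by 0.30, and BUB1, a kinase that holds shugoshin at centromeres, by 0.27. BUB3, which also serves outside mitosis and stood behind CKS2 and CDC20 in level, had a smaller change, with 163 ± 1.05 FPKM in 5aza libraries and 187 ± 2.88 FPKM in control libraries (SD, n = 3 each, log2 fold change -0.20).

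The chromosomal passenger complex, which corrects wrong attachments and guides cytokinesis, fell as a whole. AURKB, its kinase (ENSG00000178999, chromosome 17, 8204733 to 8210600), had 57.6, 58.9 and 55.9 FPKM in 5aza libraries, against 77.2, 82.7 and 77.7 FPKM in control libraries (27.5% lower, log2 fold change -0.46, SE 0.038, adjusted p = 2.98e-04). Groups are separated by a gap several times the spread within 5aza. The scaffold INCENP, survivin (BIRC5) and borealin (CDCA8) fell by 0.33, 0.31 and 0.33, and the ratio of BIRC5 to INCENP was 4.85 in 5aza libraries and 4.77 in control libraries (exact permutation p = 0.6). AURKA, the Aurora kinase of the spindle poles, changed less than AURKB, with 53.1 ± 2.82 FPKM in 5aza libraries and 63.6 ± 4.55 FPKM in control libraries (SD, n = 3 each, log2 fold change -0.26). Its call was lost without 5aza replicate 3 (adjusted p = 0.0672), control replicate 1 (0.0658) or control replicate 2 (0.0673), and with no variance trend (0.0580). The ratio of AURKB to AURKA was 1.06, 1.07 and 1.12 in 5aza libraries, against 1.17, 1.24 and 1.33 in control libraries. These ratios do not overlap between groups (log2 difference -0.20, exact permutation p = 0.1, and 0.75 adjusted over 15 pairs), and the design cannot give a smaller p for a single ratio. Of the 15 ratios compared, this one and that of CENPE to CENPF were the 2 with no overlap between groups.

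The mitotic entry genes fell in all 12 cases, with a median of -0.29 and values from -0.44 for CDCA3 to -0.16 for CCNB1. CDCA3, a trigger of mitotic entry through degradation of WEE1, had 18.2, 17.1 and 16.7 FPKM in 5aza libraries, against 23.6, 23.7 and 23.5 FPKM in control libraries. The 3 control libraries differ by far less than the groups do. CKS2, a small subunit that binds CDK1 and the member of highest mean FPKM, had 222.6, 212.6 and 209 FPKM in 5aza libraries, against 273, 292 and 272 FPKM in control libraries (log2 fold change -0.38, SE 0.039, adjusted p = 7.42e-04). CDK1, the mitotic kinase, fell to 99.5 ± 3.14 FPKM in 5aza libraries, against 121.9 ± 3.51 FPKM in control libraries (SD, n = 3 each). PLK1, the Polo kinase of mitotic entry and spindle assembly, fell by 0.31, NEK2, a centrosome kinase, by 0.29, and TPX2, the activator of AURKA, by 0.28.

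The cyclins fell by different amounts, and no test compared them with each other apart from the ratio given last. CCNA2, which acts in S phase and G2, had 54.8, 48.6 and 49.2 FPKM in 5aza libraries, against 65.2, 66.3 and 63.0 FPKM in control libraries (log2 fold change -0.35). CCNB1, the main mitotic cyclin (ENSG00000134057, chromosome 5, 69167010 to 69178245), had 162, 152 and 152 FPKM in 5aza libraries, against 177, 174 and 172 FPKM in control libraries. The CCNB1 groups do not overlap, but its fold change was the smallest of those that passed (-0.16, SE 0.035, adjusted p = 0.0137). The call was lost with equal sums (adjusted p = 0.0675), quantile normalization (0.176), the expression trend removed (0.127) or no variance trend (0.0523), and without 5aza replicate 2 (0.0538) or 5aza replicate 3 (0.0541). CCNB2, the Golgi-associated B cyclin, fell by 0.22, and the ratio of CCNB2 to CCNB1 overlapped between groups (0.363 in 5aza libraries and 0.378 in control libraries, exact permutation p = 0.4). Of the phosphatases that switch CDK1 on, CDC25B fell by 0.21 and CDC25C by 0.30. The CDC25C call was lost with equal sums (adjusted p = 0.0590) and without 5aza replicate 1 (0.0549), 5aza replicate 3 (0.0525) or control replicate 1 (0.0630).

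At the exit from mitosis, CDC20, the activator of the APC/C, had 192, 194.5 and 191 FPKM in 5aza libraries, against 242, 246 and 223 FPKM in control libraries (log2 fold change -0.30, adjusted p = 0.00234). UBE2C, the ubiquitin-conjugating enzyme of the APC/C, fell by 0.32. PTTG1, the securin that holds separase inactive, had 138.6, 137 and 134.7 FPKM in 5aza libraries, against 154, 164 and 145 FPKM in control libraries (log2 fold change -0.17, adjusted p = 0.0318). The margin between the PTTG1 groups is smaller than the spread of the control libraries, and the call was lost in 9 of 17 alternatives, among them each omission of a library but that of control replicate 3. Of the spindle and cytokinesis genes, PRC1, the bundler of midzone microtubules, and NUSAP1, a spindle microtubule protein, each fell by 0.33. Exons of PRC1 and NUSAP1 share 57.6% and 62.2% of their bases with another annotated gene on the same strand, so that their reads cannot be assigned with certainty. ECT2, the exchange factor that sets the cleavage plane, ANLN, a scaffold of the contractile ring, DLGAP5 and HMMR, both spindle proteins, fell by 0.23 to 0.25. ASPM, a spindle pole protein, had 10.5, 10.7 and 10.4 FPKM in 5aza libraries, against 11.0, 11.2 and 12.1 FPKM in control libraries, and did not pass (adjusted p = 0.196). TOP2A, the topoisomerase that untangles sister chromatids, fell by 0.23.

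MKI67, a coat protein of mitotic chromosomes and a marker of cycling cells (ENSG00000148773, chromosome 10, 128096659 to 128126385), had 28.0, 35.5 and 29.8 FPKM in 5aza libraries, against 32.3, 33.2 and 34.7 FPKM in control libraries. 5aza replicate 2 exceeded all control libraries, the groups overlap, and MKI67 did not pass (log2 fold change -0.11, SE 0.083, adjusted p = 0.380). Without 5aza replicate 2 it passed, with a log2 fold change of -0.21 (adjusted p = 0.0420).

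**Figure D4:**
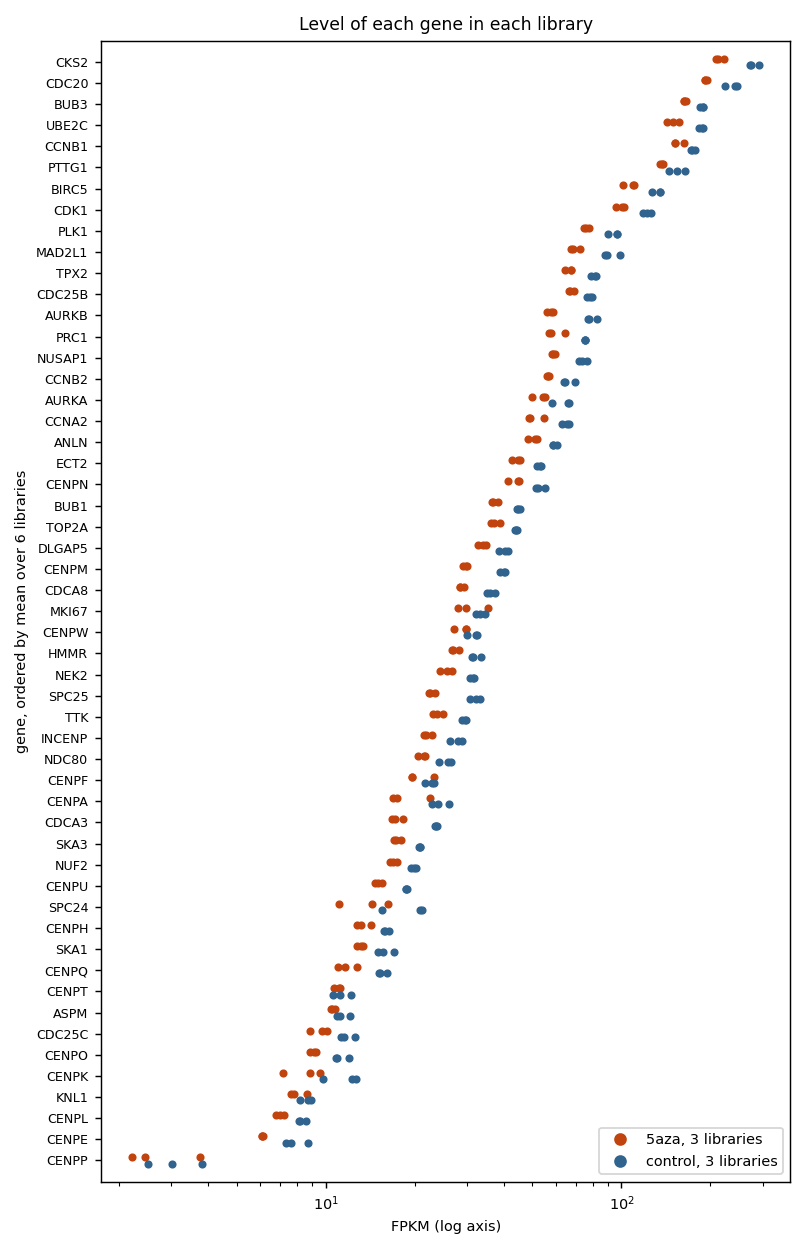
FPKM of each gene in 3 5aza libraries (upper points of each row) and 3 control libraries (lower points), on a log axis, with genes ordered by their mean. Levels run from 2.96 FPKM for CENPP to 247 FPKM for CKS2, and 5aza points lie left of control points for most genes at every level.

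FPKM is a level per length, so levels of different genes compare only as far as the lengths used by the submitters hold. Those lengths are not known from these sources, and shared exons, as in CENPP, PRC1 and NUSAP1, limit the comparison further. The mean over all 6 libraries ranged from 247 FPKM for CKS2 and 215 FPKM for CDC20 to 6.99 FPKM for CENPE and 2.96 FPKM for CENPP. CDC20, UBE2C and PTTG1 had means of 215, 168 and 146 FPKM, whereas CCAN members lay between CENPP and CENPN (48.4 FPKM). CKS2 stood at the 98.0th percentile of the table's means and CENPP at the 40.9th.

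Longer members had smaller decreases. The 8 genes that did not pass were SPC24, CENPP, CENPW, CENPT and 4 of the longest transcripts of the list, CENPF, MKI67, ASPM and KNL1. Of the 6 members whose longest protein-coding transcript in GENCODE 29 reaches 8000 bases, CENPE fell and the other 5 did not pass, with a median log2 fold change of -0.12. Of the 47 shorter members, 44 fell, with a median of -0.29. This split was chosen after the values were seen, and the transcript used in these cells may be shorter than the longest one annotated, as may be so for CENPP. All genes tested showed a shift in the same direction: those of 8000 bases or more had a median log2 fold change of 0.09 (29 of 945 fell) and those under 2000 bases a median of -0.07 (532 of 2443 fell). 5aza replicate 2 was higher for long transcripts, with a median over the 945 genes of 0.08 (log2) above the other 5aza libraries, and -0.003 over the 2443 short ones. With the trend on length removed in each library, falls over all genes numbered 2685, against 1619 with it left in, and the median of all genes was -0.06. Rises numbered 1062, against 1310 with it left in. Among the members 51 of 53 then fell, all but CENPP and CENPT, with CENPF, MKI67, ASPM and KNL1 at log2 fold changes of -0.21 to -0.25 (adjusted p between 0.00892 and 0.0220). The removal did not lower long members alone: CENPW, at 750 bases, went from -0.12 to -0.27. The added falls thus cannot all be read as falls that length had hidden. The part of the length trend in the members' falls was not tested otherwise. Over the 53 members, the log2 fold change correlated with log2 length at Pearson's r of 0.415 and Spearman's rho of 0.379, and over 11612 genes tested with a length at 0.003 and 0.203. Both describe genes of the same libraries.

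**Figure D5:**
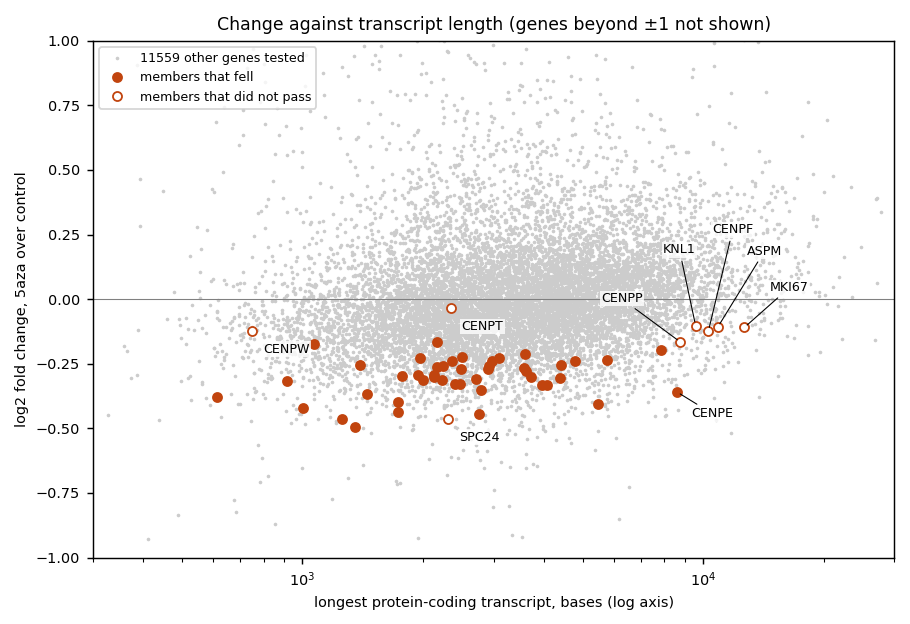
Log2 fold change of 5aza over control (y axis) against the length of the longest protein-coding transcript in bases (log x axis), for 53 members (large points, open where the test was not passed) and other genes tested (small grey points). Members under 8000 bases lie mostly between -0.20 and -0.49, and CENPF, MKI67, ASPM and KNL1 lie near -0.11.

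Among the 36 members with a single window, those with and without a match to the CHR letters both fell in most cases. Members with a CHR match anywhere in the window had a median log2 fold change of -0.27 (23 of 27 fell) and those without a median of -0.35 (7 of 9 fell). With both CHR and CCAAT, 17 of 21 fell, with a median of -0.30. By a CHR match within 50 bases of the start, 21 of 24 members with a match fell (median -0.27) and 9 of 12 without (median -0.31). Among all genes tested with a single window, members included, 691 had a CHR match anywhere. Of those 691 genes 23.2% fell (median -0.05), against 13.3% of the 5941 without a match (median -0.01). Outside the list, 181 genes tested with a single window had a CHR match within 50 bases of the start. Of these, 66 fell (36.5%) and 15 rose, with a median of -0.12, whereas of 6415 genes without such a match 13.3% fell, with a median of -0.01. Of the 181 genes, 20 belonged to the lists of other mitotic genes below, and of the 161 in neither list 51 fell (31.7%) and 15 rose. Whether further cell cycle genes, such as kinesins, remain among the 161 was not examined.

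Other genes of the same processes, from lists of 119 symbols, were lower in 5aza libraries in many cases. Among 117 tested, 62 had fallen, 3 had risen and 52 missed the threshold, with a median of -0.21. All 8 condensin genes fell, led by NCAPH (27.9 ± 2.04 FPKM in 5aza libraries and 36.8 ± 1.93 FPKM in control libraries, SD, n = 3 each) and NCAPH2. Of 10 other inner kinetochore and CENP-A loading genes, 7 fell, among them CENPX, a histone-fold CCAN subunit (-0.38). Of 12 genes of the MIS12 complex and the rest of the outer kinetochore, 7 fell, with PMF1 and ZWINT at -0.37 and -0.35. Of 16 other spindle and cytokinesis genes, 12 fell, with GTSE1 and TROAP at -0.42 and -0.37. Of 13 further CDK1 regulators and mitotic kinases tested, 7 fell, led by WEE1 and PKMYT1, the inhibitory kinases of CDK1 (-0.38 and -0.36), and ARPP19, a phosphatase inhibitor of mitosis, rose by 0.15 (adjusted p = 0.0123, and 0.0504 without 5aza replicate 3).

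The remaining lists hold the APC/C, other checkpoint genes and cohesin, and the shares that fell were not compared between lists. Of 18 APC/C subunits and inhibitors 6 fell, with a median of -0.10, led by ANAPC15 and CDC26 (-0.42 and -0.24). Of 10 other checkpoint genes 2 fell, KNTC1 and TRIP13 (-0.26 and -0.22), with a median of -0.09, where 13.1% of all genes tested fell. Of 13 cohesin genes 6 fell, led by the acetyltransferase ESCO2 and the shugoshin SGO1 (-0.47 and -0.32), and NIPBL, the cohesin loader, rose to 9.51 FPKM in 5aza libraries, against 8.13 FPKM in control libraries (adjusted p = 0.0460). The NIPBL call was lost at every omission of a library (adjusted p from 0.0505 up to 0.125) and in 6 other alternatives. The calls of SGO1 and KNTC1 were each lost with equal sums (adjusted p = 0.0543 and 0.0818) and at 3 omissions. For SGO1 those were of 5aza replicates 1 and 3 and control replicate 1 (adjusted p from 0.0607 up to 0.0652), and for KNTC1 of 5aza replicates 1 and 2 and control replicate 1 (0.0615 to 0.0639).

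Among factors that transcribe G2 and M phase genes, 7 of 17 fell and CDKN1A rose, where 13.1% of all genes tested fell and 10.6% rose. FOXM1 had 32.0, 30.3 and 31.6 FPKM in 5aza libraries, against 40.7, 42.4 and 42.4 FPKM in control libraries (log2 fold change -0.42, SE 0.038, adjusted p = 4.08e-04). MYBL2, its partner on the MuvB core, fell to 54.1, 51.9 and 49.4 FPKM in 5aza libraries, against 65.2, 65.2 and 61.1 FPKM in control libraries. The groups of neither gene overlap. E2F4 and TFDP1, of the DREAM complex, fell by 0.26 and 0.16, and RBL1, LIN9 and RBBP4 fell by 0.31, 0.28 and 0.11. The RBL1 and LIN9 calls (adjusted p = 0.0459 and 0.0443) were lost with the replicate number as a block (0.0529 and 0.0762) and at 5 of the 6 omissions of a library, all but that of control replicate 1 for RBL1 and of 5aza replicate 1 for LIN9. The TFDP1 and RBBP4 calls were lost with equal sums (adjusted p = 0.0693 and 0.401), quantile normalization or the expression trend removed. The RBBP4 call was also lost with no variance trend (adjusted p = 0.0770) and without any 5aza replicate or control replicate 2 (adjusted p from 0.0567 up to 0.0736). CDKN1A, the p21 inhibitor of cyclin-dependent kinases through which p53 acts on these promoters, had 261, 263 and 265 FPKM in 5aza libraries, against 103, 102 and 99.0 FPKM in control libraries. Whether the members' falls depend on CDKN1A was not tested.

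Markers of epithelium were present, with gaps among the intestinal ones. Of 11 colorectal epithelial markers, CDH1, KRT8, KRT18, KRT19 and KRT20 rose, with log2 fold changes of 0.35, 0.23, 0.26, 0.34 and 1.88. EPCAM fell (log2 fold change -0.12, adjusted p = 0.0213), at 151 to 157 FPKM in 5aza libraries and 166 to 167 FPKM in control libraries. CLDN7 did not pass (log2 fold change -0.09, adjusted p = 0.115), though its 5aza libraries all lay below its control libraries. CDX2 did not pass, at 8.63 to 10.3 FPKM in 5aza libraries and 8.72 to 9.48 FPKM in control libraries. The intestinal genes CDX1, CDH17 and VIL1 were under 1 FPKM in all 6 (CDX1 was listed at 0 in every control library). The summed FPKM of the 11 was 2979 to 3056 in 5aza libraries and 2483 to 2639 in control libraries, most of it from KRT8, KRT18 and KRT19, and the part of this difference in the members' falls was not tested. All 5 blood and all 4 endothelial markers were under 1 FPKM in every library, with PTPRC at or below 0.108 FPKM and CDH5 at or below 0.0761 FPKM. Of 6 fibroblast markers, 5 were under 1 FPKM throughout, and COL1A1 had 6.38 to 7.24 FPKM in 5aza libraries and 4.49 to 4.77 FPKM in control libraries. The sums of these 6 were 6.71 to 7.71 FPKM in 5aza libraries and 4.57 to 4.95 FPKM in control libraries.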

How the data were processed

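The deposited table, named FPKM by the authors, gives FPKM per gene for 6 libraries, matched to samples through their descriptions, which have the code DAC where titles have 5aza. STAR 2.5.1b, HTSeq 0.6.0 and DESeq2 1.10.1, with GRCh38 and Rnor_6.0 as builds, stand in the submitters' processing notes without roles. Read depth is not known from these sources, so no counting interval or limit for values at 0 is printed. Where 1 of 11 identifiers was repeated, its row of higher mean was used. Symbols came from a table of gene names (15421 of 15451 Ensembl identifiers matched) and coordinates from GENCODE 29 (GRCh38).

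The 12360 genes that reached 0.5 FPKM in 3 or more libraries were fitted by limma 3.58.1 (R 4.3.3) on log2(FPKM + 0.1), with a variance trend, two-sided, and with Benjamini-Hochberg adjustment over all of them. All 53 members were among them, each at 2.22 FPKM or more in every library. The fit was checked on simulated data with independent noise. Those data held no shifts of scale, length or replicate, so the check does not bear on these. The added 0.1 shrinks fold changes of low genes. Ratios of partners were compared by two-sided exact permutation tests over the 6 libraries (Python 3.11.15, scipy 1.17.1), and the pair of BUB1 and BUB1B was not analysed. The members and lists were chosen with earlier results of these data known. Named genes are all members, up to 2 rising and 2 falling genes of each other list, and the genes that passed in the list on transcription; 1 gene so chosen is not reported here. Alternatives changed the pseudocount, filter, scaling, variance trend, block and libraries, and the removal of a length trend was added after seeing the data.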

Additional observations from a re-analysis of the deposited data

How the results depend on the processing

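All 53 members stayed lower in 5aza under every alternative run, except CENPT, at 0.044 with equal summed FPKM and between -0.080 and 0.019 with a library left out. Of 45 members that fell, 37 kept the call under all alternatives. Falls among members numbered 37 to 45 with a library left out and 38 to 51 otherwise, and rises 0 throughout. The members' median was -0.20 with equal sums, -0.23 with cyclic loess (the expression trend removed) and -0.32 with the length trend removed. Over all genes, falls numbered 779 with equal sums, 1041 with no variance trend, 2685 with the length trend removed and 940 to 1523 with a library left out, and rises 2249 with equal sums and 693 to 1084 with a library left out. Rises among other pathway genes were 7 with equal sums. Partner ratios whose groups did not overlap numbered 2 to 5 of 15 with a library left out, where groups of fewer libraries part more easily by chance. Some log2 ratio differences near 0 changed sign with a library left out, spanning -0.090 to 0.17 (SPC24 to SPC25), -0.055 to 0.038 (SKA1 to SKA3), -0.018 to 0.076 (CENPL to CENPN), -0.29 to 0.077 (CENPO to CENPP) and -0.0050 to 0.046 (BIRC5 to INCENP). The cause was not tested.

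Same-numbered libraries deviated together weakly over all genes tested (correlations of 0.0482, 0.0772 and 0.0677, each the highest for its 5aza library). Among the 53 members, replicate 3 was the lowest of its group in 31 genes in 5aza and in 30 in control. The main fit did not take the numbers as pairs. With the replicate block 46 members and 1673 genes in all fell, and 7 of 15 ratios had the same sign in all 3 pairs, a count not set against chance.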
